A study of Mus musculus with 2 samples.

Results

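The Ifi200 cluster on mouse chromosome 1 is a row of interferon-inducible genes, and its promoter contacts were examined here on each parental allele of a hybrid embryonic stem (ES) cell line. The genes considered were Aim2, Ifi203, Ifi204, Ifi205, Ifi207, Ifi208, Ifi209, Ifi211, Ifi213 and Mndal, and windows were chosen where they overlap the RefSeq span of a member on GRCm38. The cluster itself was chosen by its allelic interaction counts in these data, so those counts are described here without a test. The table analysed here holds 43941 windows of 50 kb, and 2 of them overlap a member. Both overlap Aim2, so 1 of the 10 members has any value and the other 9 are not analysed here beyond their position and sequence. The same holds for Ifi202b, Ifi206 and Ifi214, the other genes of the family in the row, so 12 of 13 family genes have no window. What follows is therefore an account of the Aim2 end of the cluster and of the 4 Mb around it (chromosome 1, 171500001 to 175500000), where 54 of 80 possible windows have values.

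The cells were F121-6, a female ES cell line from a cross of the 129 and Mus castaneus (Cas) strains, grown on inactivated embryonic fibroblasts with LIF. Promoter Capture Hi-C ligates DNA ends that lie close together in fixed nuclei, and promoter fragments among the joined products are then pulled out with RNA baits. There was a single group with 2 samples, replicates 1 and 2, and the table gives 1 pooled interaction count and 1 interaction distance per allele and window. No spread between replicates can be given, and the 2 groups compared are the 129 and the Cas alleles of the same nuclei. These data hold no expression values, so the cell type could not be checked against its markers, and how far reads of the fibroblast feeders entered the counts was not tested.

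Proteins of the Ifi200 or PYHIN family combine a pyrin domain, which binds other pyrin domains, with a HIN domain, which binds double-stranded DNA. Aim2 senses DNA in the cytosol and assembles an inflammasome with the adaptor Pycard, which activates caspase-1. Ifi204 is the mouse gene most often set beside human IFI16, a DNA sensor of the nucleus and cytosol, while Ifi202b encodes a protein without a pyrin domain that restrains Aim2. The family is known mainly from macrophages and other immune cells, where interferon raises many of its members, and the row of genes differs in number between mouse strains.

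The members lie within 173349547 to 174031755 of chromosome 1. Aim2 comes first (173349547 to 173466040), followed by Ifi213 (173566280 to 173599348), Ifi209 (173630859 to 173647928), Ifi208 (173673628 to 173698393) and Ifi207 (173723424 to 173741831). Next come Ifi204 (173747293 to 173767069), Mndal (173857215 to 173880382), Ifi211 (173896339 to 173913087), Ifi203 (173920400 to 173942866) and Ifi205 (174011998 to 174031755). Of the others, Ifi206 (173468485 to 173491318) and Ifi214 (173521311 to 173535957) lie between Aim2 and Ifi213, and Ifi202b (173962569 to 173982844) lies between Ifi203 and Ifi205. A stretch of 700 kb from 173400001 to 174100000, equal to 14 windows, holds none of the analysed windows and contains 16 whole protein-coding genes.

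Several promoters of the row, though not all, resemble each other closely. Promoters are shown here for an element that many of them share, of a kind known to make genes interferon-inducible. They are also shown for their likeness, since reads from near copies are hard to place. RefSeq promoter sequences of GRCm38.p6, from 250 bases before to 50 bases after the annotated start, were matched by symbol for 9 of the 10 members and for 12 of the 13 family genes, with 14 entries in all. Ifi204 had no entry. The interferon-stimulated response element was searched, on both strands, as GAAA, any 2 bases and GAAA again. It was present in 7 of the 9 members and in 9 of the 12 family genes, counting a gene if any of its entries matched. By entry, 10 of the 14 held it, against 3.44% of all 32851 promoter entries. In each stretch below the match is in capitals, and the strand is that of the gene.
Ifi208 (chr1:173673587-173673636, plus strand): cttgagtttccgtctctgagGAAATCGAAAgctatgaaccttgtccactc
Ifi213 (chr1:173599316-173599365, minus strand): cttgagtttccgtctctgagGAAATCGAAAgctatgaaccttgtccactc
Ifi206 (chr1:173491329-173491378, minus strand): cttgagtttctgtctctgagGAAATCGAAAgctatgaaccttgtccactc
Ifi214 (chr1:173536007-173536056, minus strand): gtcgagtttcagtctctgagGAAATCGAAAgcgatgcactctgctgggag
Mndal (chr1:173880194-173880243, minus strand): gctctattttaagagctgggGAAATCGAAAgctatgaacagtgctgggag
Ifi203 (chr1:173942498-173942547, minus strand): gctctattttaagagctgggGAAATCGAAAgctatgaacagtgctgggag
Ifi207 (chr1:173741821-173741870, minus strand): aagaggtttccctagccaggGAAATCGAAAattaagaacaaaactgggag
Ifi211 (chr1:173913054-173913103, minus strand): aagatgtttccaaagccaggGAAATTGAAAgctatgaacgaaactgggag
Ifi205 (chr1:174031860-174031909, minus strand): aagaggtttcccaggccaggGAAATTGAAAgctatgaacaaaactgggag

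Of these 9 genes, 7 carried the same 10 letters, and Ifi211 and Ifi205 differed from them in the same single letter between the repeats. The first base of the element lay 35 to 79 bases before the annotated start in 8 of the 9, from 35 bases in Ifi203 to 79 in Ifi214, and 134 bases before it in Ifi205. A further match on the opposite strand lay in another entry of Mndal and in Ifi205. Aim2 and Ifi209 held no match. In Ifi209, an alignment with the promoter of Ifi214 placed a G1T change at the first base of the element, counted from 1 at its 5′ end with the Ifi214 base first. The aligned 10 bases are in capitals.
Ifi209 (chr1:173630760-173630809, plus strand): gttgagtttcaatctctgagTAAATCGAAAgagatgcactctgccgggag

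The 250 bases before the annotated start of Aim2 share no such stretch and are given for comparison, with no capitals because no match was found.
Aim2 (chr1:173420354-173420603, plus strand): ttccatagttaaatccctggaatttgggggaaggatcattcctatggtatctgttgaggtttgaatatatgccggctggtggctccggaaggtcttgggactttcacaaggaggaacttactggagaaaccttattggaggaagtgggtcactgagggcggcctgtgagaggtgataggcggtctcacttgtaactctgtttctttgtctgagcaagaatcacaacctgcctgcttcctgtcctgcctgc

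A gamma-activated site, searched as TTCNNNGAA, was found in none of the 9 members and in 1 of the 12 family genes, Ifi202b. By entry this was 1 of 14, against 8.30% of all promoter entries. The HindIII site AAGCTT, at which the chromatin was cut, was in none of the 14 entries, against 7.45% of all entries. These matches describe letters in a window of 300 bases and say nothing of factor binding in these cells.

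Several promoters were near copies of each other. Among the 89 pairs of entries from different genes, 5 pairs shared an identical run of 100 bases or more, the length of the sequenced reads. Ifi208 and Ifi206 had the longest run, 182 bases, with 99.3% identity over 281 aligned bases. Ifi213 shared 135 identical bases with each of them. Mndal and Ifi203 shared a run of 139 bases at 97.6% identity, and Ifi209 and Ifi214 a run of 109 bases at 96.0%. The pairs covered 7 genes, 5 of them members. Ifi207, Ifi211 and Ifi205 formed a further set with 88.4 to 94.0% identity and no shared run above 45 bases. Genes with such copies lay inside the stretch without windows. Windows without values were not confined to it. Of the 80 possible windows of the region 26 had none, and 14 of them make up this stretch. Genes outside the family such as Pigm, Slamf9, Tagln2 and Crp, left of Aim2, had no window either. Whether the likeness bears on which windows have values was not tested.

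Aim2 was the only member with contacts to describe, and what was measured belongs to the part of its span that lies before its annotated promoter. The promoter entry of Aim2 starts at 173420604, which is 71.1 kb inside the span and 20.6 kb beyond the last window with values. The windows hold 43.3% of the span, with 454 bases in the first and 50000 in the second. The annotated promoters in them are those of Ackr1, which encodes an atypical chemokine receptor of red cells and venules, and of Cadm3, a neural cell adhesion gene. Because the baits target promoters, the contacts counted there cannot be told apart into those of Aim2 and those of Ackr1 and Cadm3.

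The first window (173300001 to 173350000) had 3779 interactions on 129 and 3460 on Cas. Its share on 129 was 52.2% (exact Clopper-Pearson 95% interval 51.0 to 53.4%). In the second (173350001 to 173400000), 4688 interactions were on 129 and 4154 on Cas, which puts 53.0% on 129 (52.0 to 54.1%). Both windows thus had more interactions on 129, but by less than the table as a whole, where 129 held 57.6% of all interactions. The intervals cover counting error only and take interactions as independent. They may be too narrow even for that, since no molecular identifiers are named and 1 contact may count in each of the windows it joins.

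To set windows against each other, the log2 ratio of 129 to Cas was taken with 1 added to each count and centred on its median over all windows, 0.45. A negative value then means fewer contacts on 129, relative to Cas, than in the median window. The Aim2 windows lay at -0.33 and -0.28 on this scale. Without the centring the same windows lay above 0, with a median of 0.15, so the direction rests on what the alleles are compared with. In the whole table, 14.2% of windows had a lower centred ratio than the first Aim2 window and 17.4% a lower one than the second. These ratios, from the counts the cluster was chosen by, carry no test. For the table as a whole, a beta-binomial test over the 43762 windows with 10 or more interactions, adjusted by Benjamini-Hochberg, called 0.944% of windows at 0.05. The exact binomial test, which allows for counting error alone, called 51.4%. No calls are given for the windows at Aim2 or around the cluster.

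**Figure D1:**
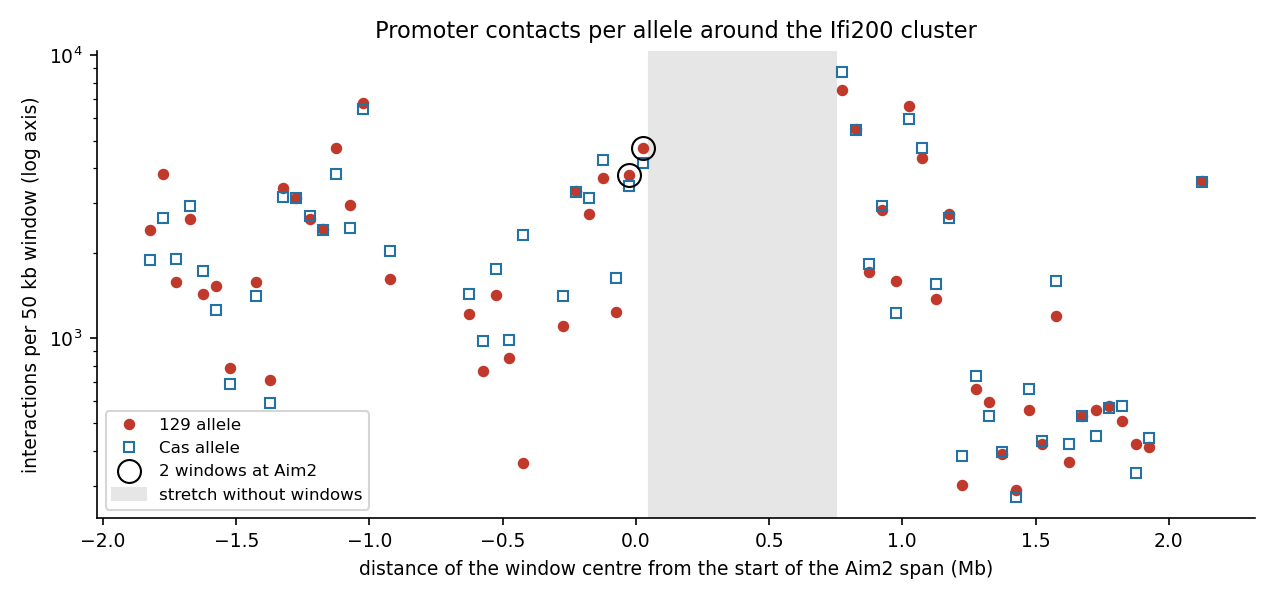
Interactions per 50 kb window on the 129 allele (filled circles) and the Cas allele (open squares), on a log axis, against the distance of the window from the start of the Aim2 span. Circled points are the 2 windows at Aim2, with 3779 and 4688 interactions on 129, and the grey band is the 700 kb without windows.

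Contacts were many and short at this end of the cluster. The summed counts of 7239 and 8842 interactions exceeded those of 95.5% and 97.7% of all windows, where the median was 974. In the first window interactions spanned 39 kb on 129, against 44 kb on Cas, and in the second 39 kb on both alleles. The median distance over all windows with 10 or more interactions per allele was 348 kb on 129 and 347.5 kb on Cas. On 129, 95.3% of windows had a longer distance than those at Aim2. The other 52 windows of the region had a median of 2959 interactions and of 201 kb on 129. Many short contacts were also seen elsewhere in the region, as in the window of Igsf8, Kcnj9 and Kcnj10, with 13261 interactions and 62 kb on both alleles. The Aim2 windows each hold 1 annotated promoter, that of Ackr1 or of Cadm3. Whether windows that hold a promoter differ in this from those without was not tested. The sources used here do not say whether a window's distance is a mean or a median.

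The region on both sides of the cluster had fewer contacts on 129, relative to Cas, than the rest of the genome. Over the 54 windows from 171500001 to 175500000 there were 114928 interactions on 129 and 117015 on Cas, so that 129 held 49.6% (49.3 to 49.8%). Elsewhere the share was 57.6%. The median centred ratio was -0.48, with quartiles of -0.67 and -0.30, and 53 of the 54 windows lay below 0, as 50.0% of all windows do by construction. In raw counts, 25 windows had more interactions on 129 and 29 had more on Cas, whereas 8.01% of all windows had more on Cas. These counts, too, are from the contrast by which the cluster was chosen and carry no test.

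**Figure D2:**
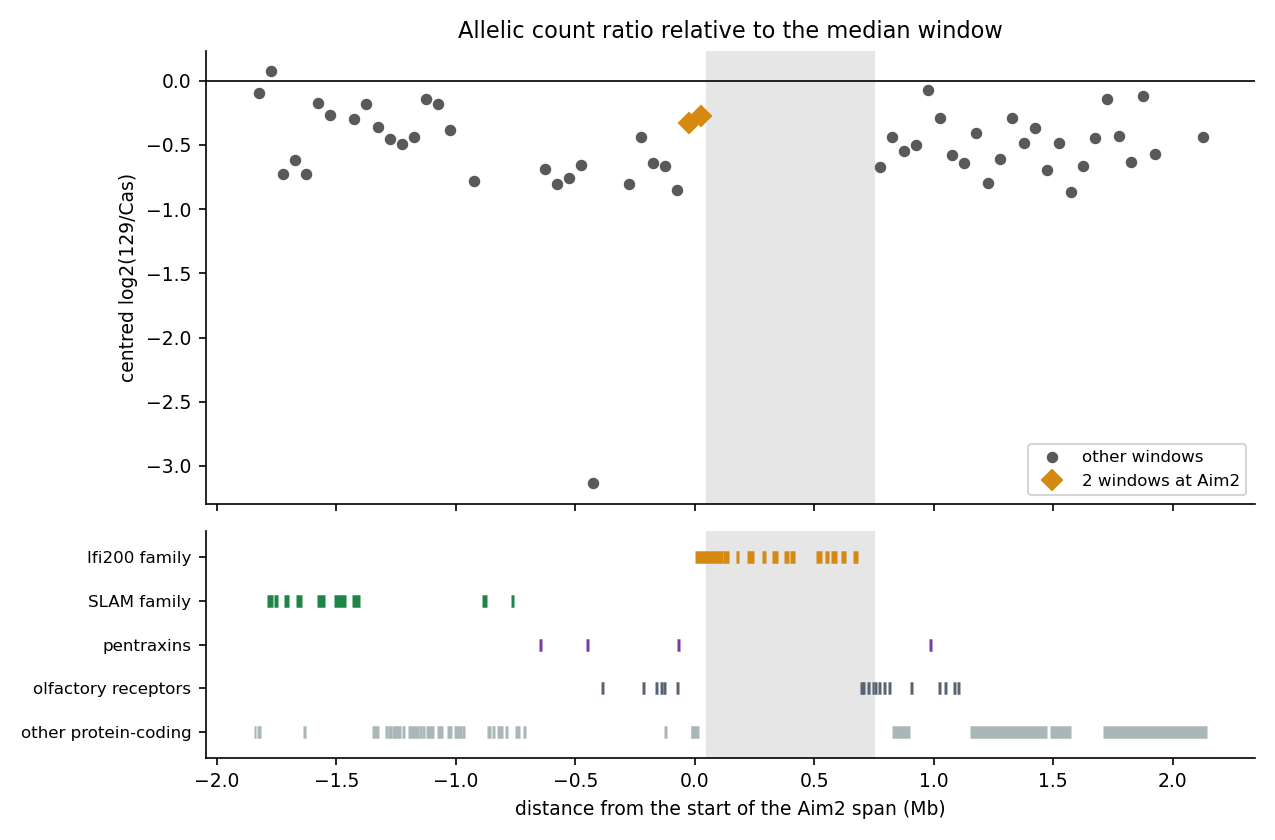
Upper panel, centred log2 ratio of 129 to Cas counts in the 54 windows, with the 2 windows at Aim2 as diamonds at -0.33 and -0.28; lower panel, annotated genes of the region by group. All points but that of Cd244a lie below 0, and a single window lies at -3.13.

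The shift was of like size on both sides of the stretch without windows. Left of the Aim2 windows, 26 of 27 windows lay below 0, with a median of -0.49 and 60827 interactions on 129 against 62438 on Cas. Right of the stretch, all 25 windows lay below 0, with a median of -0.48 and 45634 interactions against 46963. The Aim2 windows stood nearer to 0 than most of their neighbours, since 39 of the 54 windows had a lower ratio than the first and 43 a lower ratio than the second. The 8 windows to their left had a median of -0.71 and the 8 windows right of the stretch a median of -0.52. Ratios in the region had a standard deviation of 0.43, or 0.23 without the lowest window, against a median of 0.05 from counting error alone.

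Next to Aim2 on the left is a block of olfactory receptor genes and Fcer1a, which encodes the alpha chain of the high-affinity IgE receptor. The adjoining window with Olfr418 and the mucosal pentraxin gene Mptx2 (173250001 to 173300000) had 1235 interactions on 129, against 1631 on Cas, and a centred ratio of -0.85. The window before it, with Olfr218, Olfr1404 and Fcer1a, had 3689 and 4278. Windows of Olfr1406 and Olfr1408 had 2755 on 129 against 3137 on Cas and 3304 against 3278. The first Aim2 window, at -0.33, adjoins the Olfr418 window at -0.85 and so lay 0.53 above it on the log2 scale.

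On the other side, the first window with values after Ifi205 (174100001 to 174150000) holds Olfr427, Olfr231 and Olfr424. It had 7522 interactions on 129 and 8738 on Cas, the highest counts of the 54 windows, with a centred ratio of -0.67. Its distances were also the shortest of the region, 31 kb on 129 and 23 kb on Cas. The window of Mptx1, a further pentraxin gene, stood nearer to 0, with 1594 and 1227 interactions and a ratio of -0.08.

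A single window stood far from the others. It lies at 172900001 to 172950000, beyond Apcs, the gene of serum amyloid P, and before Olfr16, and contains no protein-coding gene. Here 129 had 361 interactions and Cas 2322, which puts 13.5% on 129 (12.2 to 14.8%) at a centred ratio of -3.13. The Apcs window beside it had 852 and 983 interactions and a ratio of -0.66, close to the windows further out. Leaving the window out changed the median of the region by less than 0.01, to -0.48, and its share on 129 to 50.0%.

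Of the 75 protein-coding genes annotated in the region, 48 had a window and 47 of these lay below 0 when counts were summed over each gene and centred on the median of all protein-coding genes, 0.41. Genes that share a window share its counts, so these are not 48 separate values. The SLAM family, cell surface receptors by which lymphocytes and other blood cells contact each other, lies at the far left. Its 7 genes with windows ranged from 0.11 for Cd244a, with 3817 interactions on 129 and 2651 on Cas, to -0.62 for Slamf7, with 4205 and 4841. The 14 olfactory receptor genes with windows all lay below 0, between -0.25 and -0.82, with a median of -0.57. The 3 pentraxin genes with windows, Apcs, Mptx2 and Mptx1, lay at -0.62, -0.82 and -0.04. These groups were formed after their values were seen.

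Genes known mainly for roles outside immunity lay in the same range. Copa, which encodes a coat protein of transport vesicles, had 5761 interactions on 129 and 5845 on Cas. Vangl2, a gene of planar cell polarity, had 3384 and 3166. Fmn2, a formin gene, spans 7 windows between -0.79 and -0.29 with 5541 interactions on 129 and 5650 on Cas in all. Rgs7, a regulator of G protein signals, had 6071 and 5936.

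In bins of 1 Mb, the bins around the cluster were among the lowest of chromosome 1. The bin from 173000001 to 174000000 has 7 windows, all before the stretch without values, of which 2 are those at Aim2 and 5 lie to their left. Its median was -0.64, the lowest but 1 of the 189 bins of chromosome 1 with 5 or more windows, while its Aim2 windows lay at -0.33 and -0.28. The bins on both sides of it were next, at -0.49 for 172000001 to 173000000 and -0.52 for 174000001 to 175000000. The lowest bin of the chromosome lay elsewhere, at 66000001 to 67000000, with -0.68. On the left the shift was smaller over the next bins, with medians of -0.40, -0.27, -0.32 and -0.32 down to 168000001, and 0.06 in the bin before. On the right it changed within a bin. The 7 windows from 175000001 to 175500000 had a median of -0.44 and 50.5% of interactions on 129, while the 10 windows from 175500001 to 176000000 had a median of 0.00 and 58.0%. The bin after that, 176000001 to 177000000, lay at -0.21 again. The bins named here hold 7 to 20 windows, all from the same pooled libraries, so these medians carry no error from replicates.

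**Figure D3:**
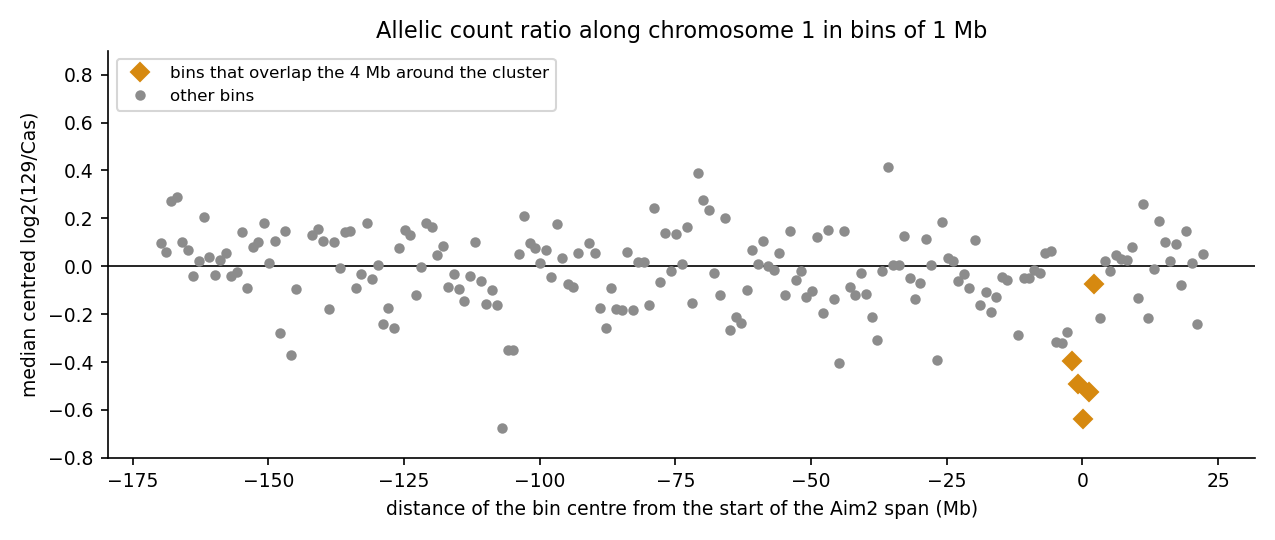
Median centred log2 ratio of 129 to Cas counts in the 189 bins of 1 Mb on chromosome 1, against the distance from the start of the Aim2 span. Diamonds mark the bins that overlap the 4 Mb around the cluster. The lowest diamond, at -0.64, is a bin of 7 windows, of which 2 are at Aim2 and lie at -0.33 and -0.28.

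Distances differed between the alleles in some flanking windows. Of the 54 windows, 37 had the longer distance on 129, 14 had it on Cas and 3 had equal distances, while in the whole table it was longer on 129 in 48.7% of windows. The median distance over the 54 windows was 186.5 kb on 129 and 157.25 kb on Cas. In 4 of the 54 windows it was at least 2-fold longer on 129, as in 8.37% of all windows, and in none was it so on Cas, against 8.73% of all windows. The largest differences were at the far left, with 761 kb on 129 and 105 kb on Cas in the window of Cd244a and 710 against 158.5 kb in that of the intelectin gene Itln1. The others were a window of Slamf1 and Cd84, with 506 and 253 kb, and that of Mptx1, with 491.5 and 191 kb. The Aim2 windows, with ratios of -0.17 and 0 on the log2 scale, were not part of this. With 1 distance per allele and window, no test was possible.

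**Figure D4:**
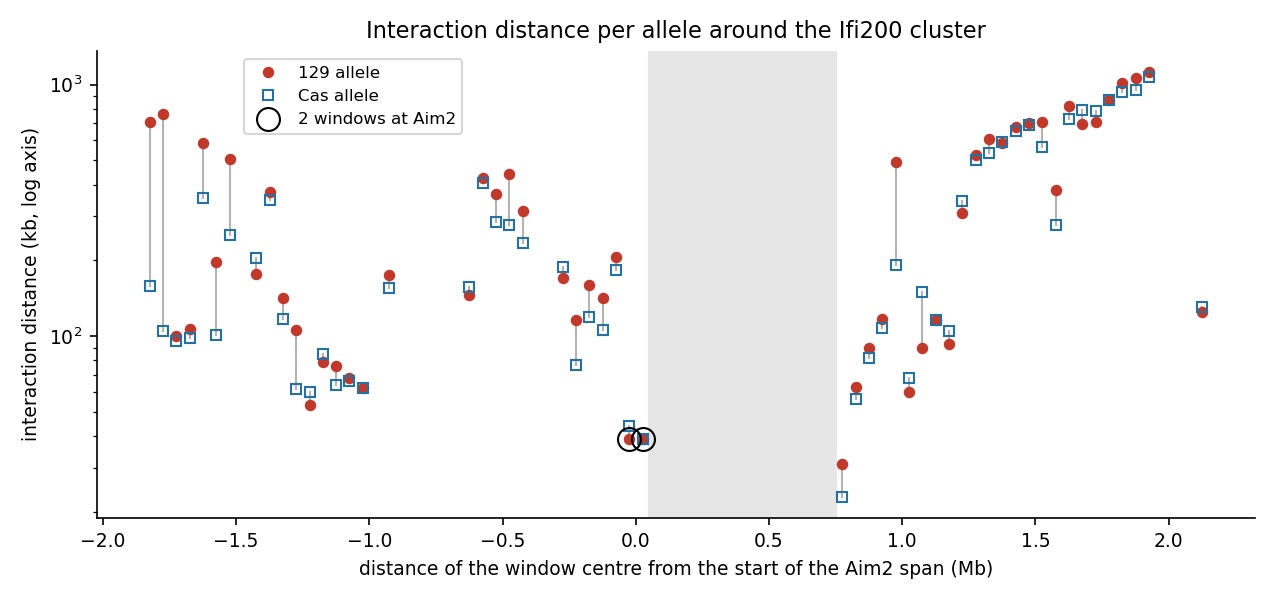
Interaction distance in kb (log axis) on the 129 allele (filled circles) and the Cas allele (open squares) in the 54 windows, with a grey line joining the alleles of a window. The windows at Aim2 are circled at 39 kb on 129, and the longest lines are at the far left.

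The wider pathway was set beside the cluster with 3 lists of genes elsewhere in the genome, tested over all 18475 protein-coding loci with 10 or more interactions. The lists were chosen with earlier results of these data known, so calls within them are not independent tests. Of 78 listed genes, 70 had windows. Mx1, Mx2 and Oas1b are annotated as pseudogenes on this assembly and were not matched, and Oas2, Oas3, Igtp, Iigp1 and Xaf1 have no window. The beta-binomial test called 1 of the 70 loci, higher on Cas, and none higher on 129, where it called 0.368% of all loci higher on Cas and 0.996% higher on 129. The binomial test called 28 higher on Cas and 20 higher on 129, against 38.3% and 29.2% of all loci. The median centred ratio over the 70 loci was 0.02, with all loci at 0 by construction, and 39 lay above 0 and 31 below. Some of these genes overlap the same windows, such as Ifit2 and Ifit3 or Ifitm1 and Ifitm2, so these are not 70 separate values.

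Among genes of DNA sensing and the inflammasome, the pathway in which Aim2 acts, 22 of 22 had windows and the median was 0.06. The called locus was Nlrp1b, an inflammasome sensor that responds to anthrax lethal toxin, on chromosome 11. It had 1115 interactions on 129 and 2446 on Cas (centred ratio -1.55, beta-binomial adjusted p = 0.00013). Because its list was chosen with earlier results of these data known, this p-value is not independent evidence. Pycard, the adaptor of Aim2, had 1942 and 1730 interactions and a ratio of -0.25, and Casp8, a caspase gene of cell death, lay at -0.19. Nlrc4, a further sensor, had 1778 and 1780 and a ratio of -0.42. Towards 129 were Samhd1, which degrades nucleotides, at 0.42, Gsdmd, the pore-forming protein cut by caspase-1, at 0.41, the helicase gene Ddx41 at 0.37 and the DNA repair gene Mre11a at 0.19. None of these 7 passed the test, with adjusted p of 1.

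Of 17 genes of interferon signalling, all had windows and none was called, with a median of 0.01. Stat2, a transcription factor of the type I response, lay at 0.35, Ifng at 0.35 and Ifnb1 at 0.23, while the kinase genes Tyk2 and Jak2 lay at -0.32 and -0.12, Socs3 at -0.16 and Irf9 at -0.08. Of 39 other interferon-induced genes, 31 had windows and none was called, with a median of 0.01. Trim30a had 1223 and 560 interactions, a ratio of 0.71 (beta-binomial adjusted p = 0.73), and Slfn2 had 1004 and 1104, a ratio of -0.55. The guanylate-binding protein genes Gbp3, Gbp2 and Gbp7 lay at 0.46, 0.40 and 0.36, and Gbp3 and Gbp7 share a window. Bst2, the gene of tetherin, lay at -0.43, Rsad2, which encodes viperin, at -0.39, and Slfn4 at -0.36.

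**Figure D5:**
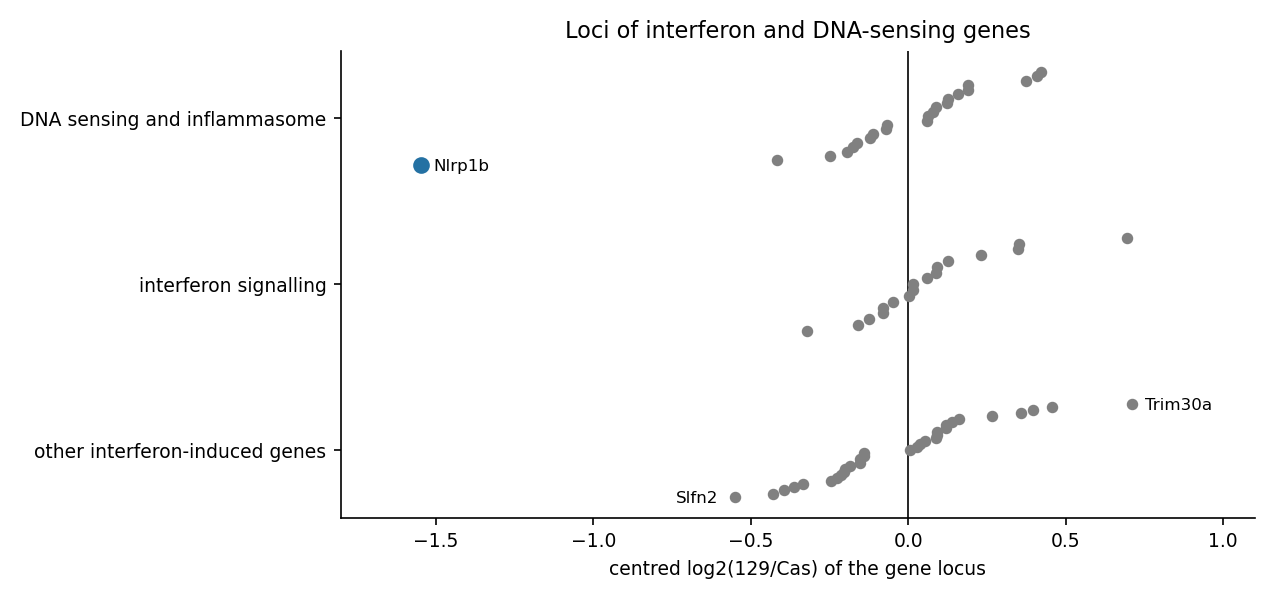
Centred log2 ratio of 129 to Cas counts at 70 gene loci of 3 lists, a point per locus, ordered by value within each list. The large point is Nlrp1b at -1.55, the locus the beta-binomial test called, and the other points lie between -0.55 and 0.71.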

How the data were processed

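Per the labels' protocols, nuclei were fixed in 2% formaldehyde, cut with HindIII and ligated, baits targeted 22225 promoters, and read pairs were 100 bp long. Bowtie2 and mm10 are named by the submitters' processing notes. Allele assignment, filters, duplicate removal and the merging of the 2 samples are not given in the sources used here. Whether reads of the Cas allele were lost in mapping to a reference closer to 129 was not tested.

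The deposited table gives raw interaction counts, and a distance taken to be in bp, for each allele and window of 50 kb. The total count was 50842396 on 129 and 37470557 on Cas. Column names do not tell the samples apart, so each column was taken as pooled.

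Starts were raised by 1. Genes were placed by RefSeq spans of GRCm38. Windows and gene loci with 10 or more interactions were tested by a two-sided beta-binomial test against the autosomal 129 share, with an overdispersion of 0.0165 for windows and 0.0109 for loci, or, as an alternative, by an exact binomial test. On data simulated over 43762 windows, the beta-binomial test called 80% of windows changed 4-fold and 0% of those changed 2-fold. The binomial test called 58.7% of unchanged windows. Promoters were aligned with Biopython 1.88; tests used scipy 1.17.1 under Python 3.11.15 with pandas 2.3.3 and numpy 2.4.6, and figures matplotlib 3.10.9. All members, the family genes, genes beside the cluster and, per list, up to 4 genes per direction with the largest ratio and any called gene were named. A few items are not reported here. The members and lists were chosen with earlier results of these data known. The alternatives changed the pseudocount, centre, windows, count minimums, null share, threshold and test.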

Additional observations from a re-analysis of the deposited data

How the results depend on the processing

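Without centring, the median ratio of the Aim2 windows turned to 0.15 and that of the 54 windows around the cluster moved to -0.030, since the centre is the excess of 129 in the whole table. Centred on chromosome 1, the 54 windows had -0.46. Pseudocounts of 0.5 and 5 and leaving out the window of highest count kept both ratios within their counting intervals. A count minimum of 100 left the same windows for both ratios and so could not change them. The same holds for Aim2 when every window from the first to the last member was taken. Higher distance minimums left the same windows and values. The windows called in the whole table numbered 22494 by the exact binomial test, 120 with an equal share as null and 248 at a threshold of 0.01, against 413. By the binomial test 48 pathway genes were called, against 1. The ratios for the 54 windows were added after the data were seen. Taking only windows with the annotated start of a member gave no value, because no such window has values. No paired analysis was possible because each column pools both replicates, and for the same reason no replicate could be left out. The median counting error of the Aim2 windows was 0.03 on the log2 scale, taking interactions as independent, and ratios over all windows had a standard deviation of 0.46; how depth bears on the ratios was not tested.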
